A study of Mus musculus with 6 samples.

Results

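Mitochondrial fatty acid oxidation is the pathway that shortens fatty acids by repeated removal of acetyl-CoA. It was followed here through 33 listed genes, all of which were found among the 22488 genes of the deposited count tables by an exact match of their symbol, with the Entrez identifier of each agreeing with the mouse reference. The list covers the carnitine shuttle that carries fatty acids into the mitochondrion, the 4 reactions of the oxidation cycle, the electron carriers that serve it, the enzymes that handle propionyl-CoA, and related acyl-CoA dehydrogenases of amino acid breakdown. RNA came from whole livers of male wild-type C57BL/6 mice, 6 to 8 weeks old, all fasted for 16 h. Injections were intraperitoneal. The mice of the 3 control libraries received HBSS (Hanks' salt solution, 200 µl). Those of the 3 LPS libraries received lipopolysaccharide, a cell wall component of Gram-negative bacteria that triggers systemic inflammation, at a dose of 6 mg/kg. A separate label field calls the controls untreated, and the time from injection to sampling is not given in the sources used here.

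Livers of fasted mice depend on this pathway. Long-chain fatty acids released from adipose tissue are activated to acyl-CoA, passed to carnitine, carried across the inner membrane and oxidised, and the acetyl-CoA formed feeds ketone body synthesis and the citric acid cycle. Each turn of the cycle is an oxidation by an acyl-CoA dehydrogenase, a hydration, a further oxidation and a thiolytic cut, and enzymes with preferences for long, medium and short chains share the work. Many genes of the pathway are textbook targets of the nuclear receptor PPAR-alpha, and PPAR signalling in the LPS-treated liver is the subject of the series.

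Library totals ran from 11488525 to 20282004 counts. Levels are read counts relative to library size (CPM) after TMM scaling. Where a mean is given it is followed by its SD (n = 3). Differences are log2 fold changes of LPS over control, and SE is their standard error. Adjusted p values come from edgeR's quasi-likelihood test over 12078 genes, and a gene is said to have fallen or risen where its adjusted p was under 0.05. The headings of the count columns number the control libraries 2572, 2573 and 2574 and the LPS libraries 100, 101 and 102. What these numbers refer to is not given in the sources used here, and anything that goes with them cannot be told apart from the treatment. The titles number the libraries of each group as repeat experiments and do not say that each is a separate mouse. Each library is called a liver here. The tests rest on the spread among these 6 libraries, which may be technical.

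Nearly the whole pathway was lower in LPS livers. Of the 33 members, 32 passed the filter on low counts, 31 of these fell, 0 rose, and 1, the carnitine importer Slc22a5, did not pass the threshold. Over all genes tested, 31.0% were called lower and 31.3% higher, 62.3% together. The median log2 fold change of the 32 members was -1.24, against 0.01 over all genes tested. In the same 31 members every LPS library lay below every control library, where 33.4% of all tested genes had groups separated in that direction and 34.0% in the other. At least 2-fold falls were found in 20 members, beside 18.1% of all tested genes (16.0% rose at least 2-fold), so the members differed mainly in how far they fell. The summed level of all 33 members was 9301, 9889 and 10237 CPM in control replicates 1, 2 and 3 and 3625, 3772 and 4215 CPM in LPS replicates 1, 2 and 3. The LPS sum was 39.5% of the control sum, and the sums of the groups did not overlap. In bulk tissue, fewer cells of a type and less RNA per cell cannot be told apart.

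**Figure D1:**
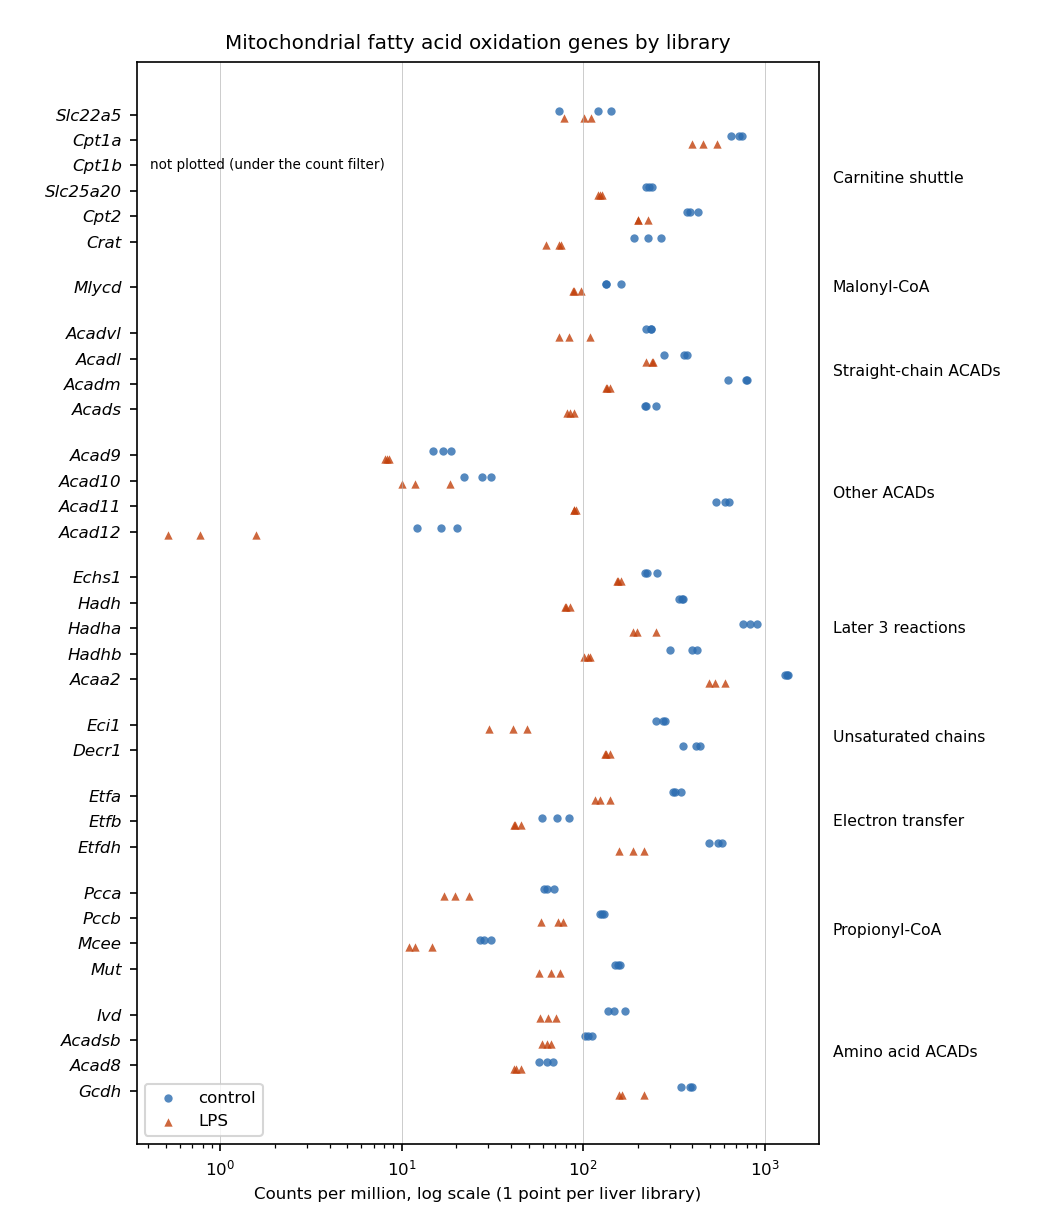
Level of each member in each library, in CPM on a log axis, grouped by step of the pathway; circles are the 3 control livers and triangles the 3 LPS livers. In 31 of the 32 plotted members all triangles lie to the left of all circles, and only the points of Slc22a5 overlap.

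The size of the fall ran from less than 2-fold in 11 members to at least 4-fold in 5. The 5 that fell most were Acad12, Eci1, Acad11, Acadm and Hadh, and the 11 that fell least were Acadl, Acad8, Echs1, Cpt1a, Mlycd, Etfb, Acadsb, Pccb, Slc25a20, Cpt2 and Acad10. The remaining 15 fell between 2-fold and 4-fold. Members that fell little and members that fell strongly stood side by side within the same step, as the order along the pathway shows.

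**Figure D2:**
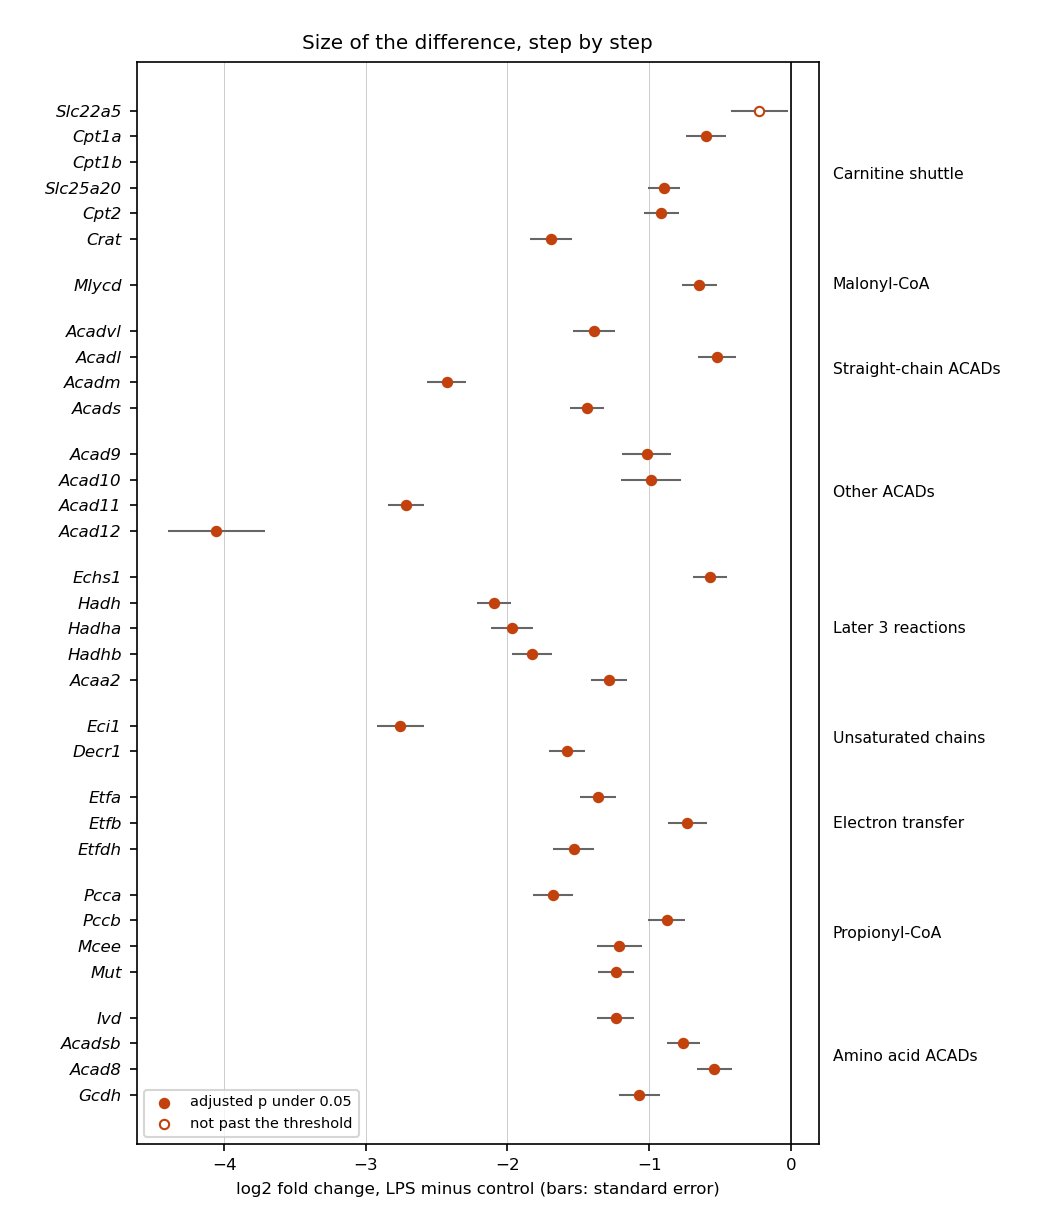
log2 fold change of each tested member, LPS minus control, with its standard error, grouped by step. Filled points passed the threshold; values run from -4.06 for Acad12 to -0.22 for Slc22a5, the open point.

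The carnitine shuttle moves long-chain fatty acids across the mitochondrial membranes. Of its 6 listed genes 5 were tested and 4 fell, with a median of -0.89. Slc22a5, which imports carnitine into the cell, stood at 73.5, 121 and 142 CPM in control replicates 1, 2 and 3 and at 78.6, 101 and 110 CPM in LPS replicates 1, 2 and 3. The low library was control replicate 1, and the groups overlapped (log2 fold change -0.22, SE 0.20, adjusted p = 0.356). Without control replicate 1 the gene passed the threshold (-0.45, adjusted p = 0.0261), and without control replicate 3 it stood at -0.04. Some 27.1% of the 50-base stretches of its transcript also occur in other genes, nearly all in its neighbour Slc22a21, and how such reads were counted is not given in the sources used here.

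Cpt1a, the liver form of the outer membrane transferase that is inhibited by malonyl-CoA and is regarded as the main control point of entry (chromosome 19, 3322334 to 3385733), had 749, 653 and 723 CPM in control and 397, 460 and 546 CPM in LPS livers. All LPS values were lower, and they were spread more widely than the control values (-0.60, SE 0.14, adjusted p = 0.00222). The carrier Slc25a20, which exchanges acylcarnitine for carnitine across the inner membrane, had 221, 231 and 239 CPM in control and 128, 124 and 121 CPM in LPS livers (-0.89, SE 0.11). Cpt2, which returns the acyl group to coenzyme A on the matrix side, had 371, 388 and 430 CPM in control and 202, 200 and 229 CPM in LPS livers (-0.91, SE 0.12). The carrier and Cpt2 thus stood at 53.8% and 53.0% of their control means, and Cpt1a at 66.0%.

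Crat, which transfers acetyl and other short acyl groups to carnitine, fell the most in this step. It had 191, 227 and 268 CPM in control and 76.0, 73.9 and 62.4 CPM in LPS livers (-1.69, SE 0.15, adjusted p = 2.988e-07). Mlycd, which removes the CPT1 inhibitor malonyl-CoA, fell by less, from 133, 134 and 162 CPM to 88.2, 97.3 and 89.2 CPM (-0.64, SE 0.12). Cpt1b, the muscle form of the outer membrane transferase, was close to absent. It had 7, 3 and 5 counts in the control libraries and 4, 0 and 3 in the LPS libraries, too few for a test, and the 0 in LPS replicate 2 allows up to 0.211 CPM (3 counts of that library, counting error only). Most of the Cpt1b transcript (93.0% of its 50-base stretches) is also part of the overlapping gene model Gm44502.

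The first oxidation of each turn is made by the acyl-CoA dehydrogenases (ACAD family), flavoproteins that hand their electrons to the electron transfer flavoprotein. Of the 12 family members listed, all 12 fell. The 4 that act on straight chains had a median of -1.41, and they did not fall by the same amount. Acadm, for medium chains (chromosome 3, 153922357 to 153944632), had 628, 799 and 786 CPM in control and 141, 136 and 134 CPM in LPS livers, and stood at 18.6% of its control mean (-2.43, SE 0.14, adjusted p = 4.525e-09). The LPS values of Acadm lay close together and far below the lowest control library. Acadl, for long chains, had 279, 371 and 361 CPM in control and 240, 222 and 243 CPM in LPS livers, with a gap between the groups that was narrow beside the control spread (-0.52, SE 0.13, adjusted p = 0.00416). Acadl was the least lowered of the called members, at 69.7% of its control mean. Acadvl, for very long chains and bound to the inner membrane, had 238, 222 and 236 CPM in control and 73.4, 83.3 and 109 CPM in LPS livers (-1.39, SE 0.15). Acads, for short chains, had 253, 218 and 222 CPM in control and 81.9, 84.6 and 89.6 CPM in LPS livers (-1.44, SE 0.12). Acadvl and Acads thus stood close together, between Acadl and Acadm, and 976 exon bases of Acadvl are shared with the overlapping gene Dvl2.

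The 250 bases before and 50 after the RefSeq start of Acadm, Acadl and Cpt1a are shown (GRCm38.p6, gene strand) because Acadm and Acadl fell the most and the least of the 4 straight-chain dehydrogenases and Cpt1a is the entry step. Capitals mark the hexamer AGGTCA or its reverse complement TGACCT, the core of many nuclear receptor sites.
Acadm, chr3:153944594-153944893, minus strand: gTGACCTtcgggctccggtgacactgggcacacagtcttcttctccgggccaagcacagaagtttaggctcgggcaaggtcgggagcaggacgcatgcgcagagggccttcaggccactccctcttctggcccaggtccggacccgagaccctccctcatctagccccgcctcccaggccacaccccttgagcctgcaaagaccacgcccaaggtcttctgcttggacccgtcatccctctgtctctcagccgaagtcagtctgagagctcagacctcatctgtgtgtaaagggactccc
Acadl, chr1:66863260-66863559, minus strand: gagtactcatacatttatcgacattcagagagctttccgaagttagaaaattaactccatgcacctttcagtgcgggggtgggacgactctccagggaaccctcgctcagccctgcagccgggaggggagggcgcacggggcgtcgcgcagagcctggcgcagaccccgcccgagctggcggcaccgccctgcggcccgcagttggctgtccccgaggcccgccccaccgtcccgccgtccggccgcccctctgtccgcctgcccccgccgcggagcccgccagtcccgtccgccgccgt
Cpt1a, chr19:3323051-3323350, plus strand: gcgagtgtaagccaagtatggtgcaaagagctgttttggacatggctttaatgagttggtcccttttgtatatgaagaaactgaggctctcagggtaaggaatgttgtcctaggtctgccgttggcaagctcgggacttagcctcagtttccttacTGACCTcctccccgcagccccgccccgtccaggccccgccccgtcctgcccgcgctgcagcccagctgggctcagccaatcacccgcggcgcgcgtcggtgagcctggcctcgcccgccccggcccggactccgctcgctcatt
The Acadm and Cpt1a windows hold the hexamer once each and the Acadl window does not hold it. RefSeq and GENCODE starts differ for some members. The Cpt1a window lies inside the GENCODE gene, which starts at 3322334. RefSeq windows were matched for 27 of the 33 members (28 windows, 2 of them for Pcca), and Acaa2, Acad9, Cpt1b, Crat, Decr1 and Mut had none. The first Pcca window ends at 122484414, far before the GENCODE start of Pcca at 122534324. A PPAR element of 2 copies of AGGTCA in a row with 1 base between, its looser form of 2 copies of AGGNCA with the same spacing, and the ERR element TCAAGGTCA, searched on both strands, were in 0 of the 28 windows, and in 0.0396%, 0.381% and 0.423% of 32851 windows of the same length. The hexamer alone, a search added after the first 3 gave no match and contained in the full element and in the ERR element, was in 6 of the 28 windows, of Acadm, Acadvl, Cpt1a, Echs1 and Pcca, and in 16.3% of all windows. The 5 genes with a match fell by amounts from 0.57 to 2.43 on the log2 scale. These are matches of letters in short windows only.

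The other 4 dehydrogenases, Acad9 to Acad12, fell with a median of -1.87. Acad11, of a less studied branch of the family (chromosome 9, 104063377 to 104127725), had 541, 634 and 603 CPM in control and 91.8, 89.3 and 89.3 CPM in LPS livers (-2.72, SE 0.13, adjusted p = 8.902e-10). Its LPS libraries agreed closely and stood at 15.2% of the control mean. Acad12 (chromosome 5, 121596775 to 121618938) had 16.4, 12.2 and 20.3 CPM in control and 0.512, 0.773 and 1.57 CPM in LPS livers, from 6, 11 and 22 counts (-4.06, SE 0.34, adjusted p = 2.309e-07). This was the largest fall of all members and also the one with the largest standard error. Its neighbour and close relative Acad10 (chromosome 5, 121621026 to 121660514) had 31.0, 21.9 and 27.6 CPM in control and 10.1, 11.8 and 18.5 CPM in LPS livers (-0.98, SE 0.21, adjusted p = 0.00116). The 2 genes lie next to each other on the same strand and share sequence, with 20.4% of the 50-base stretches of Acad10 found in Acad12, so reads could be split between them. Acad9, which also serves as an assembly factor of respiratory complex I, had 18.8, 16.8 and 14.8 CPM in control and 8.10, 8.30 and 8.48 CPM in LPS livers (-1.02, SE 0.17).

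The middle of the cycle is shared between the trifunctional protein of the inner membrane, which works on long chains, and soluble matrix enzymes for shorter ones. All 5 genes of the later reactions fell, with a median of -1.83. Hadha, the trifunctional subunit that hydrates and oxidises (chromosome 5, 30118304 to 30155162), had 759, 831 and 909 CPM in control and 189, 198 and 252 CPM in LPS livers (-1.97, SE 0.15, adjusted p = 6.949e-08). Hadhb, the thiolase subunit (chromosome 5, 30155248 to 30184593), had 301, 397 and 422 CPM in control and 102, 106 and 109 CPM in LPS livers (-1.83, SE 0.14, adjusted p = 1.168e-07). The subunits stood at 25.6% and 28.2% of their control means. Of the Hadhb transcript, 62.4% of 50-base stretches occur in other gene models, nearly all in Gm13910.

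Hadha and Hadhb lie head to head, with 272 bases between their RefSeq starts. The 228 bases that their promoter windows share are shown because one stretch lies before both genes of the complex (GRCm38.p6, plus strand, in the direction of Hadhb).
Hadha and Hadhb, chr5:30155003-30155230: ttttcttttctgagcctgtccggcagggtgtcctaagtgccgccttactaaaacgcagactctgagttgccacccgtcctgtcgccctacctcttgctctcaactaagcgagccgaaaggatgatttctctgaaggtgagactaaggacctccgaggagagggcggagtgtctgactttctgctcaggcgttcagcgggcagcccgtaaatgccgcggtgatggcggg
It holds none of the motifs searched. In the GENCODE models the start of Hadha lies inside it.

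Among the soluble enzymes, Hadh, the hydroxyacyl-CoA dehydrogenase of medium and short chains, fell most. It had 337, 351 and 357 CPM in control and 79.7, 84.7 and 80.7 CPM in LPS livers (-2.09, SE 0.12, adjusted p = 4.434e-09). Echs1, the short-chain enoyl-CoA hydratase that acts just before it, fell least, from 257, 224 and 218 CPM to 161, 156 and 153 CPM (-0.57, SE 0.12, adjusted p = 9.302e-04). These 2 enzymes of consecutive reactions stood at 23.4% and 67.4% of their control means. Acaa2, the thiolase that ends the turn for medium chains and the most abundant member, had 1295, 1322 and 1346 CPM in control and 494, 533 and 602 CPM in LPS livers (-1.28, SE 0.13). Its control libraries differed little, and the LPS libraries were spread over a wider range.

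Fatty acids with double bonds need auxiliary enzymes before they can pass through the cycle. Eci1, which shifts a double bond into the position that the hydratase accepts (chromosome 17, 24426641 to 24439348), had 253, 284 and 274 CPM in control and 40.8, 30.4 and 48.8 CPM in LPS livers (-2.76, SE 0.16, adjusted p = 7.518e-09). At 14.8% of its control mean it was the most lowered member apart from Acad12. Decr1, the 2,4-dienoyl-CoA reductase, had 356, 439 and 420 CPM in control and 134, 140 and 133 CPM in LPS livers (-1.58, SE 0.13).

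The electrons of all acyl-CoA dehydrogenases pass through the electron transfer flavoprotein, a pair of Etfa and Etfb, to Etfdh, which reduces ubiquinone. All 3 genes fell. Etfa had 311, 347 and 320 CPM in control and 123, 116 and 141 CPM in LPS livers (-1.36, SE 0.13). Etfb had 83.2, 71.4 and 59.3 CPM in control and 41.4, 45.4 and 42.0 CPM in LPS livers (-0.73, SE 0.14). The Etfb groups were the closer together, and 67.3% of the 50-base stretches of its transcript are also part of the gene model Gm45233. Etfdh had 492, 551 and 584 CPM in control and 157, 189 and 216 CPM in LPS livers (-1.53, SE 0.14).

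Odd-chain fatty acids and several amino acids end in propionyl-CoA, which 3 enzymes turn into succinyl-CoA. All 4 genes of this branch fell, with a median of -1.22. Pcca and Pccb encode the subunits of propionyl-CoA carboxylase. Pcca had 63.1, 60.5 and 69.3 CPM in control and 19.6, 17.2 and 23.5 CPM in LPS livers (-1.68, SE 0.14). Pccb had 127, 124 and 131 CPM in control and 58.6, 72.3 and 77.0 CPM in LPS livers (-0.88, SE 0.13). The racemase Mcee (-1.21, SE 0.16) and the cobalamin-dependent mutase Mut, named Mmut in newer references (-1.23, SE 0.13), fell to 43.4% and 42.5% of their control means.

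The 4 dehydrogenases of amino acid breakdown fell with a median of -0.91, and 2 of them, Ivd and Gcdh, fell at least 2-fold. Gcdh, of lysine and tryptophan breakdown, had 398, 348 and 387 CPM in control and 164, 158 and 218 CPM in LPS livers (-1.07, SE 0.14). Ivd, of leucine breakdown, had 170, 136 and 147 CPM in control and 57.6, 63.7 and 70.9 CPM in LPS livers (-1.24, SE 0.13). Acadsb, of isoleucine breakdown (-0.76, SE 0.12), and Acad8, of valine breakdown (-0.54, SE 0.12), fell by less. For Acad8 the means were 62.7 ± 5.49 CPM in control and 43.1 ± 2.27 CPM in LPS livers, without overlap.

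Levels of different genes can be compared only per length, so CPM were divided by the exon length of each gene (CPM per kb). In control livers Acaa2 led with 872 ± 16.9 CPM per kb, followed by Acadm with 360 ± 46.5, Etfa with 234 ± 13.4 and Etfdh with 225 ± 19.2. Etfa and Etfdh did not differ beyond their spread. In LPS livers Acaa2 still led with 358 ± 36.2 CPM per kb, followed by Acadl with 123 ± 5.77, Cpt1a with 108 ± 17.4 and Echs1 with 101 ± 2.68, the last 2 within their spread of each other. Acadl and Cpt1a had ranked at 9 and 12 in control livers. Acadm went from place 2 to place 10, Eci1 from 5 to 20 and Hadh from 7 to 15. The lowest places, 31 to 33, were held by Acad9, Acad12 and Cpt1b in both groups.

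**Figure D3:**
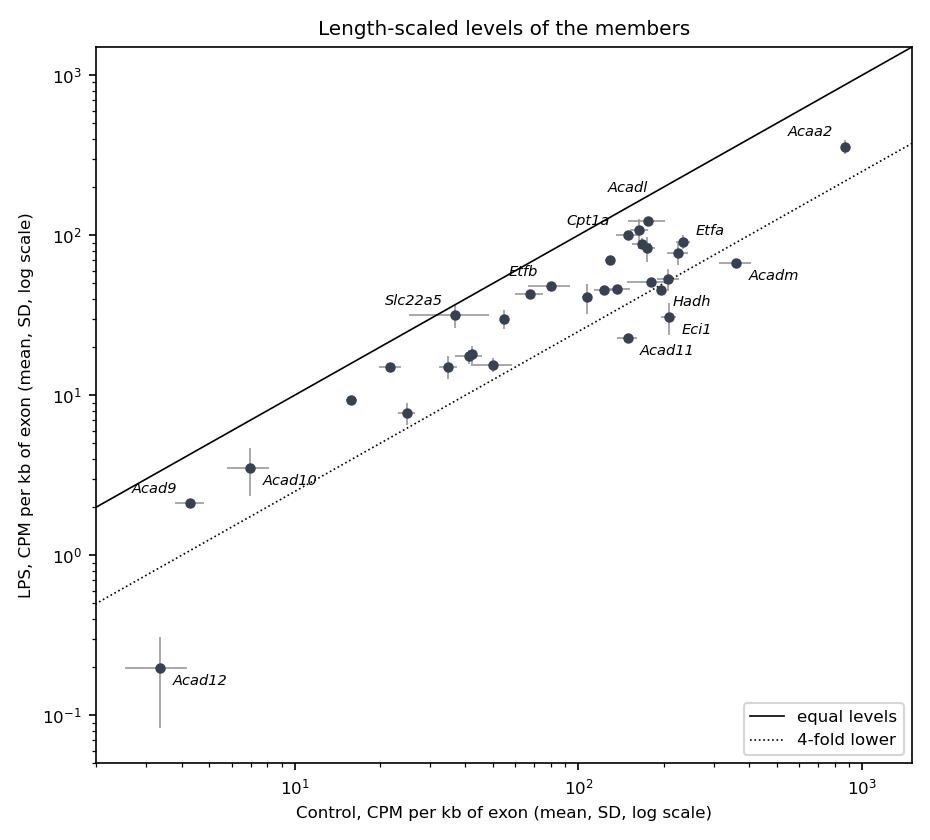
Mean level of each tested member in control (horizontal) and LPS livers (vertical), in CPM per kb of exon on log axes, with SD over 3 libraries. Every point lies below the line of equal levels. Acadm, Hadh, Eci1, Acad11 and Acad12 lie on or below the dotted line of a 4-fold fall. Slc22a5 lies closest to the line of equal levels, at 85.8% of control. Acadl and Cpt1a, both called lower, stand at 69.7% and 66.0%.

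How far members parted from each other was read as the log2 ratio of the CPM of 2 members within each library. Library scaling cancels in each ratio. Gene length cancels only in the shift between the groups, so the ratios themselves also reflect the lengths of the 2 genes. With 3 livers against 3 the exact permutation test, 2-sided, cannot give a p below 0.10, and adjusted over the 7 ratios its smallest value here was 0.14, so no ratio could pass the threshold. Acadl to Acadm turned over, with -1.17, -1.11 and -1.12 in the control libraries and 0.76, 0.71 and 0.86 in the LPS libraries, a shift of 1.91 (exact p = 0.10, adjusted p = 0.14). The read count of Acadm was thus above that of Acadl in every control liver and below it in every LPS liver. Acadvl to Acadm rose by 1.01 and Acads to Acadm by 0.99, with no overlap between the groups in either (each exact p = 0.10, adjusted p = 0.14).

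Subunits of the same complex were compared in the same way. Hadha to Hadhb was 1.17 ± 0.14 in control and 1.00 ± 0.18 in LPS livers (SD, n = 3), with overlapping groups (shift -0.16, exact p = 0.30, adjusted p = 0.30). The overlap came from LPS replicate 3, at 1.21, and the shift was -0.27 without it and -0.08 without control replicate 1. Etfa to Etfb went from 2.21 ± 0.27 to 1.56 ± 0.20 and Pcca to Pccb from -0.99 ± 0.07 to -1.79 ± 0.26. In both pairs every LPS library lay below every control library (each exact p = 0.10, adjusted p = 0.14). Cpt1a to Cpt2 was 0.84 ± 0.15 in control and 1.14 ± 0.15 in LPS livers, with overlap (exact p = 0.20, adjusted p = 0.233).

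**Figure D4:**
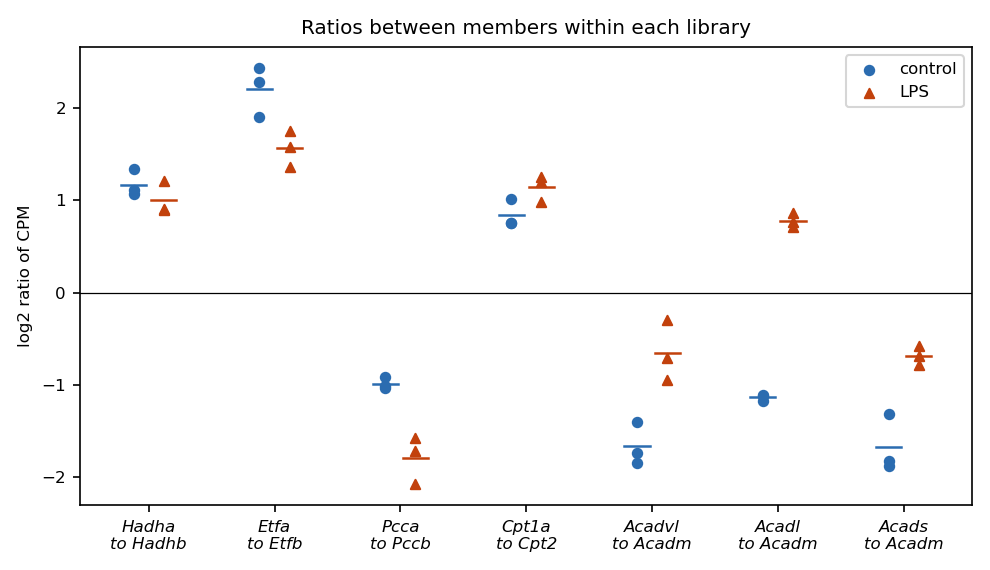
log2 ratio of the CPM of 2 members within each library, with a short line at the mean of each group (circles, 3 control livers; triangles, 3 LPS livers). The groups are apart in 5 of the 7 ratios, farthest in Acadl to Acadm, and overlap in Hadha to Hadhb and Cpt1a to Cpt2.

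Genes around the pathway were read from 9 lists drawn up by function, with earlier results of these data known. The lists hold 67 tested genes in all. Of these 45 fell and 6 rose, with a median of -0.85. Over all genes tested, 31.0% were called lower and 31.3% higher, and each count of these lists is to be read beside those shares. Of the 5 tested genes of carnitine synthesis and peroxisomal carnitine transfer, 2 fell and 0 rose. They were Bbox1, which makes carnitine in its last step (174 ± 19.6 to 22.3 ± 3.39 CPM, -2.97, SE 0.15), and Crot, the peroxisomal carnitine octanoyltransferase (1907 ± 428 to 461 ± 63.5 CPM, -2.05, SE 0.18). Of the 5 tested genes that make malonyl-CoA or control its synthesis, 3 fell and 0 rose. Acacb, the acetyl-CoA carboxylase at the mitochondrial surface, fell as well (69.3 ± 15.6 to 48.7 ± 0.467 CPM, -0.51, SE 0.15, adjusted p = 0.00928), but with control replicate 3 left out it missed the threshold (-0.33, adjusted p = 0.052). Acaca (-0.55, SE 0.14) and Prkaa2, a catalytic subunit of the kinase that inhibits both carboxylases (-0.98, SE 0.14), fell too. The enzymes that make and remove malonyl-CoA, Acaca, Acacb and Mlycd, thus all fell, by 0.51 to 0.64 on the log2 scale.

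The acyl-CoA dehydrogenases and the electron transfer flavoprotein carry FAD. Of 5 genes of FAD supply and of the flavoprotein's modifiers, 3 fell and 2 rose. The mitochondrial FAD carrier Slc25a32 (41.8 ± 1.66 to 16.4 ± 1.77 CPM, -1.35, SE 0.13) and Etfrf1, a regulator of the flavoprotein (-0.99, SE 0.13), fell. The 2 that rose, which are named in view of their values, were Etfbkmt, which methylates the ETF beta subunit (0.88, SE 0.15), and the riboflavin kinase Rfk (0.33, SE 0.12, adjusted p = 0.0276). Rfk lost its call, leaving 1 that rose, by library totals, without a filter on low counts and when control replicate 1 or 3 or LPS replicate 2 was left out. Of 4 tested partners of Acad9 in complex I assembly all 4 fell, among them Ecsit (22.0 ± 1.93 to 6.99 ± 0.666 CPM, -1.66, SE 0.17) and Tmem126b (-1.20, SE 0.16).

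In branched-chain amino acid breakdown 12 of 16 genes fell and 0 rose. Hibch, of valine breakdown, went from 65.2 ± 3.94 to 6.93 ± 0.822 CPM (-3.24, SE 0.14), Ppm1k, the phosphatase that activates the branched-chain dehydrogenase, fell by 2.50 (SE 0.12), and Acat1, a mitochondrial thiolase, fell by 2.23 (SE 0.13) on the log2 scale. In lysine and tryptophan breakdown, upstream of Gcdh, 3 of 4 genes fell and 0 rose. Dhtkd1 (-1.97, SE 0.16) and Aadat (-1.63, SE 0.14) were lower, whereas the entry enzyme Aass was at 730 ± 45.8 CPM in control and 798 ± 34.7 CPM in LPS livers (0.13, SE 0.12, adjusted p = 0.381). Around the mutase, 5 of 6 cobalamin genes fell and 1 rose. Mmachc (-2.14, SE 0.22) and Mmaa (-1.79, SE 0.19), which process cobalamin and load it onto the mutase, were lower. The gene that rose was Mmadhc, which directs cobalamin to its enzymes (83.0 ± 14.1 to 119 ± 9.41 CPM, 0.51, SE 0.14, adjusted p = 0.00594).

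The peroxisome has a beta-oxidation pathway of its own, and 9 of its 10 listed genes fell and 0 rose. Ehhadh, its bifunctional hydratase and dehydrogenase, went from 7180 ± 2278 to 557 ± 201 CPM (-3.69, SE 0.30), and Acaa1b, its thiolase, from 3275 ± 399 to 201 ± 43.2 CPM (-4.03, SE 0.19). Auxiliary enzymes of both compartments can be set side by side. Decr2, the peroxisomal dienoyl-CoA reductase, stood at -2.46 (SE 0.12) on the log2 scale, beside -1.58 for the mitochondrial Decr1. Eci2, an enoyl-CoA isomerase named after its values were seen, had 308 ± 9.80 CPM in control and 312 ± 27.1 CPM in LPS livers (0.02, SE 0.12, adjusted p = 0.886), beside -2.76 for Eci1. The difference between these pairs was not tested.

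Of 12 tested regulators of the pathway, 4 fell and 3 rose, with a median of -0.09, shares near those over all genes tested (31.0% lower and 31.3% higher). The coactivator Ppargc1a (22.9 ± 8.70 to 6.02 ± 1.04 CPM, -1.94, SE 0.26), the receptor Esrra that it acts on (26.9 ± 6.16 to 14.3 ± 3.99 CPM, -0.91, SE 0.21) and the mitochondrial deacylase Sirt3 (36.8 ± 8.00 to 14.6 ± 2.60 CPM, -1.33, SE 0.18) fell. The receptor Rxra, a partner of the PPARs, fell by 0.33 (SE 0.13, adjusted p = 0.0456), a call lost with control replicate 1 (-0.29) or 3 (-0.35) or LPS replicate 1 (-0.24) or 2 (-0.38) left out. Of the 3 that rose, Nrf1 went from 11.8 ± 1.94 to 22.1 ± 2.26 CPM (0.90, SE 0.17, adjusted p = 3.954e-04), and Foxo1 from 39.2 ± 4.90 to 71.1 ± 4.36 CPM (0.86, SE 0.13, adjusted p = 5.843e-05). Rxra, Nrf1 and Foxo1 are named in view of their values. The third, Ppara, was at 86.3 ± 7.80 CPM in control and 112 ± 16.8 CPM in LPS livers (0.37, SE 0.14, adjusted p = 0.0276). That call ended by library totals (0.30), and when control replicate 2 (0.35), control replicate 3 (0.29) or LPS replicate 3 (0.25) was left out. Creb3l3, a liver transcription factor active in fasting, was at -0.10 (SE 0.13, adjusted p = 0.551). The fasting hormone Fgf21, a PPAR-alpha target, had 8.40 ± 5.06 CPM in control and 7.60 ± 2.69 CPM in LPS livers (-0.15, SE 0.37, adjusted p = 0.75), and its sign turned without control replicate 3 (0.44) or LPS replicate 2 (0.13).

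Cell type markers and library properties were read beside these results. The marker counts, too, are to be read beside the 31.0% of all tested genes called lower and the 31.3% called higher. Of 12 hepatocyte markers 8 were lower and 2 higher, with a median of -0.53. Their summed level was 120734 to 133730 CPM in control and 92690 to 125009 CPM in LPS livers, 85.4% of the control mean, with overlap. That sum depends on Fgb, an acute-phase gene that rose from 2791 ± 282 to 23526 ± 4301 CPM. Without Fgb, a setting chosen after seeing the data, the other 11 markers summed to 117653 to 131022 CPM in control and 71438 to 96523 CPM in LPS livers, 68.1% of the control mean, and the groups did not overlap. The 8 lower markers moved in the direction of the fatty acid oxidation genes, whose sum was at 39.5%. Of the 8, Cps1 stood at 8.02% of its control mean, Ass1 at 36.5% and Cyp2e1 at 43.1%. Alb, Ttr, Apob, Hnf4a and Asgr1 stood at 62.1% to 70.6%. Fgb and Tf (0.65, SE 0.16) rose, and Apoa1 and Serpina1c did not pass the threshold. Alb alone, at 79341.5 ± 8492.6 CPM in control and 54468.6 ± 10899.1 CPM in LPS livers, made up most of the sums with and without Fgb. Neutrophil markers rose in 7 of 7 tested genes, from sums of 4.37 to 7.74 CPM to sums of 198 to 241 CPM. Kupffer cell markers fell in 7 of 8 and rose in 1, from 280 to 318 CPM down to 73.4 to 121 CPM. Of the 6 monocyte markers 4 rose and 1 fell (40.6 to 54.5 CPM against 69.7 to 84.9 CPM), and of 4 tested cholangiocyte markers 3 rose and 1 fell (19.4 to 32.9 CPM against 117 to 139 CPM). The 7 stellate cell markers, with 4 lower and 1 higher, and the 7 endothelial markers, with 4 lower and 2 higher, had sums that overlapped between the groups. Of 3 tested T and NK cell markers 1 rose. The part of these cell types in the results was not tested. Markers of skeletal and heart muscle summed to at most 1.25 CPM in any library, with Myh6 and Mb at 0 in all 6. The 7 adipocyte markers summed to 29.3 to 43.8 CPM in control and 34.4 to 56.0 CPM in LPS livers, nearly all from Plin4 (0.33, SE 0.19, adjusted p = 0.147), with Lep and Ucp1 at 0 in all 6. LPS replicate 3 was the highest of its group in 22 of the 32 tested members after TMM scaling, and in 13 by library totals.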

How the data were processed

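Whole liver RNA for the 3 control and 3 LPS libraries was extracted with Trizol, per the labels. The submitters' processing notes name bcl2fastq 2.0, HISAT2, StringTie, DESeq2, limma and the build mm10, without their roles. Per library, 1 table was deposited by the authors, with unnormalized read counts for each gene. The counting tool, annotation, strand setting and handling of reads with several positions are not given in the sources used here. Genes were named from RefSeq (GRCm38.p6), 20722 of 22488 by Entrez identifier. Exon lengths, positions and overlaps come from GENCODE M21 (GRCm38). No value column was left unused.

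Counts were compared in R 4.3.3 with edgeR 4.0.16 (TMM scaling, filterByExpr with a minimum count of 10 and a minimum total of 15, quasi-likelihood F test, 2-sided, Benjamini-Hochberg over 12078 genes, threshold 0.05). The biological coefficient of variation was 16.4%. The SE is the size of the log2 fold change over the root of its F. The method was tried on simulated data in which most genes were unchanged. In these data 62.3% of tested genes were called, a setting that the simulation did not cover. Sequences shared with other genes were counted as 50-base stretches of the longest coding transcript. No library was counted as a copy of another: within groups, chi-square per degree of freedom was 11.6 to 31.2. Libraries of the same number in the titles correlated at -7.448e-04, 0.104 and 0.0352 after group means were removed, so the number was not used as a block in the main analysis. Alternatives were library totals, RLE factors, DESeq2 1.42.0, no filter, the replicate block and leaving out each library.

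The members and the lists were chosen with earlier results of these data known. All 33 members are named, and in each list around the pathway the gene of highest mean CPM and the 2 of lowest adjusted p, plus Ppara, Ppargc1a, Esrra, Acaca, Acacb and Fgf21. Among these lists 1 gene, Coa1, had no row matched.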

Additional observations from a re-analysis of the deposited data

How the results depend on the processing

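All 31 called members kept their direction and their call under each of 11 alternatives (library totals, RLE factors, DESeq2, no filter on low counts, the replicate block and each of the 6 libraries left out), with adjusted p values of at most 0.0224. Members that fell numbered 31 to 32 with a library left out, and 0 rose in any alternative. Their median ran from -1.31 to -1.18. With the replicate block 31 members fell, with a median of -1.24, and the block changed no call of a named gene. Of all genes, 3510 to 4002 were called lower and 3372 to 3785 higher. Library totals moved the median of all genes by -0.07. The 7 ratios moved by less than the spread between libraries under counts plus 1 and with a library left out. In the lists around the pathway, 1 gene of FAD supply rose in place of 2 by library totals and without a filter, and 1 to 2 with a library left out. In carnitine synthesis and in malonyl-CoA synthesis 0 to 1 rose with a library left out. Fgf21 ran from -0.42 to 0.44 with a library left out, and turned to 0.44 and 0.13 without control replicate 3 and LPS replicate 2. Eci2, near 0, turned to -0.049 by library totals and -0.014 without a filter, and ran from -0.024 to 0.067 with a library left out. The cause was not tested. Low counts limit Cpt1b, which was not tested, and Acad12 in LPS livers.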
